A study of Mus musculus with 4 samples.

Results

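The locus of Pgr, the mouse progesterone receptor gene, was described by its chromatin loops in the uterus. A loop was taken when either of its anchors, the stretches it joins, lay within 500 kb of Pgr on mm10 (chromosome 9, 8898900 to 8968611). That gave 46 of the 59353 loops in the lists of 4 Hi-C libraries. The neighbours Trpc6 (8543867 to 8680752) and Arhgap42 (8992507 to 9239027) lie inside this window. Hi-C ligates and sequences stretches of chromatin that are near each other inside nuclei, and each loop was deposited as positions alone.

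All tissue was whole uterus of C57BL/6J females older than 10 weeks, ovariectomised and rested for 10 to 14 days, and frozen 1 h after a single injection. The progesterone library (replicate 2) came from wild-type mice given 1 mg of progesterone under the skin in 100 ul of sesame oil. The knockout library came from mice of the genotype Ex3aERKO, which lack estrogen receptor alpha (ERα), given saline into the abdomen. The vehicle libraries (replicates 2 and 3) came from wild-type mice given the same saline. Progesterone and saline thus also differ in carrier and route. The sources used here do not say whether a library held 1 uterus or a pool, or whether replicates were separate animals, and the knockout genotype cannot be checked from loop positions. The lists held 11752 loops after progesterone, 21829 in the knockout, and 16387 and 9385 in vehicle replicates 2 and 3. They carry no contact counts, so depth and loop strength are unknown. A loop that is not listed was not called, which does not show that it is absent. With 1 progesterone and 1 knockout library, no test between conditions was made, and the values below describe these 4 libraries.

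Pgr encodes a nuclear receptor that binds progesterone and acts as a transcription factor, as the isoforms PR-A and PR-B made from the same gene. In the uterus it mediates the action of progesterone on epithelium, stroma and muscle, and ERα is known to regulate its transcription. Trpc6 encodes a calcium-permeable cation channel, and Arhgap42 a GTPase-activating protein of smooth muscle. Loop anchors often hold promoters, enhancers or sites of the architectural protein CTCF.

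Pgr and Trpc6 are transcribed towards higher positions and Arhgap42 towards lower ones, so the ends of Pgr and Arhgap42 face each other across 23.9 kb. Trpc6 ends 218.1 kb before Pgr. The RefSeq start site of Pgr used here is base 8899833, 933 bases inside the edge of the gene model. The sequences below are the 250 bases before the start sites of Pgr (chr9:8899583-8899832, plus strand) and Arhgap42 (chr9:9239028-9239277, minus strand), from RefSeq on GRCm38.p6, which is mm10. They are shown because loop anchors lay on or beside both start sites, while none lay at the Trpc6 start site. Capitals mark the matches to the motifs named after them.
Pgr: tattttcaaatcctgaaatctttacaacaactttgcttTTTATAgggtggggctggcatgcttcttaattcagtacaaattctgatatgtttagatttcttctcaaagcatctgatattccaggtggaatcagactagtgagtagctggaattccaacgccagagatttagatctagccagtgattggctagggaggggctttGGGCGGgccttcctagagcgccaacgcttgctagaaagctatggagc
Arhgap42: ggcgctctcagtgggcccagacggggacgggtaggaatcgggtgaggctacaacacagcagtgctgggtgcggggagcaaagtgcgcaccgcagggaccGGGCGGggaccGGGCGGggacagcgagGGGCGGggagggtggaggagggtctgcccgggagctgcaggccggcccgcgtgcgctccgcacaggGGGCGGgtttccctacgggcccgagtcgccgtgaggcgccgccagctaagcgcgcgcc

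Of 7 motifs searched on both strands in the 300 bases from 250 before to 50 after each start site, 2 had a match. The GC box GGGCGG matched once at Pgr, at position -47 from the start site, and 4 times at Arhgap42. It is in 35.7% of all 32851 promoter windows of the table. The TATA box letters TATAAA matched once at Pgr, on the opposite strand at position -212, and are in 13.6% of windows. The other motifs had no match at Pgr, Trpc6 or Arhgap42. They were the estrogen response element (GGTCA and TGACC with any 3 bases between them, in 0.07% of windows), its single arm AGGTCA (16.3%), and the progesterone response element (GNACA and TGTNC with any 3 bases between them, 0.475%). The AP-1 site TGANTCA (7.81%) and a CTCF core (CC, any 3 bases, then AGGGGGC, 1.28%) were the remaining ones. These windows hold no sequence of the other anchors described here.

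The window held 12 loops after progesterone, 11 in the knockout, 13 in vehicle replicate 2 and 10 in vehicle replicate 3. These counts differed by at most 3, while the knockout list as a whole was the longest and that of vehicle replicate 3 the shortest. The window thus took 0.102% of the progesterone list (95% exact interval 0.0528 to 0.178) and 0.0504% of the knockout list (0.0252 to 0.0901). It took 0.0793% (0.0422 to 0.136) and 0.107% (0.0511 to 0.196) of the lists of vehicle replicates 2 and 3. The knockout share was the lowest, but its interval overlapped those of the other 3 libraries. All intervals here cover counting error only, and treat loops as independent though loops of the window share anchors. For comparison, the median of all 21631 protein-coding genes was 8 loops after progesterone, 15 in the knockout, and 11 and 6 in the vehicle libraries, in windows drawn the same way. The Pgr window was above that median in each wild-type library and below it in the knockout.

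**Figure D1:**
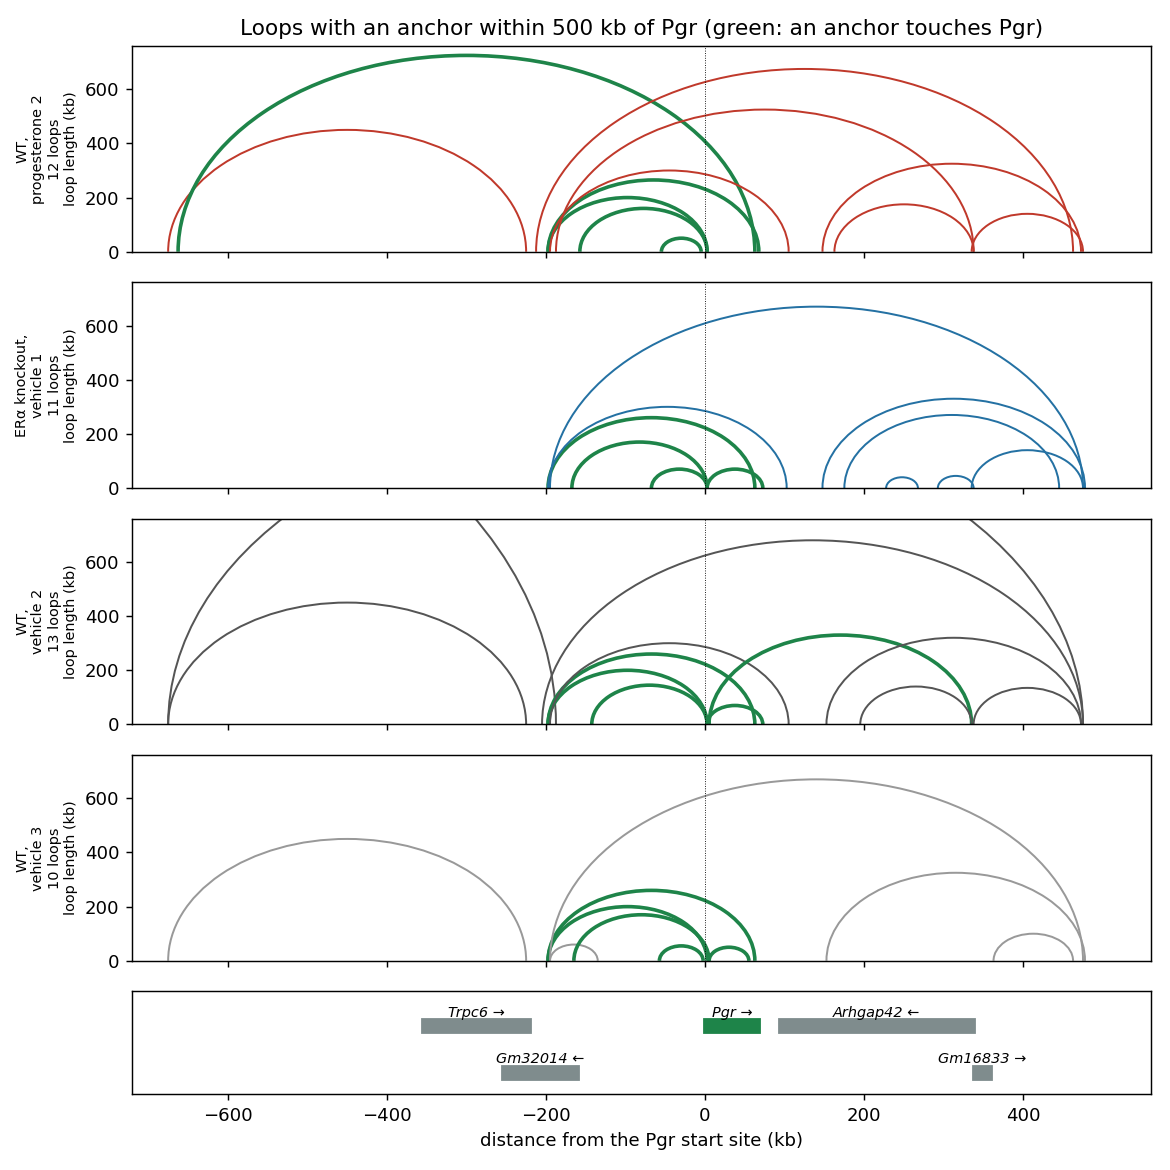
Loops around Pgr in each library. Each arc joins the centres of the 2 anchors of a loop, the x axis is the distance from the Pgr start site in kb, and the height of an arc is the loop length in kb (the arcs of 1150 and 1525 kb in vehicle replicate 2 run out of the panel); green arcs have an anchor on Pgr, and the bottom panel shows the genes with their direction. In each of the 4 libraries green arcs run upstream from Pgr to the stretch beyond the end of Trpc6, and no arc begins on the body of Trpc6 in the knockout.

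The ends of the 46 loops gathered at a few sites. Joining abutting anchors of 5 and 10 kb gave 19 anchor sites, of which 5 had a loop end in all 4 libraries and 7 in 1 library. The 3 busiest sites held 44 of the 92 loop ends (47.8%). This pools the 4 libraries, so a loop listed in several of them was counted once for each. No such share of other windows is given beside it. The busiest, at 8690001 to 8710000, lies 9.25 kb beyond the end of Trpc6, inside the lncRNA gene Gm32014 and at -189.83 kb from the Pgr start site. It had 5 loop ends after progesterone, 3 in the knockout, and 5 and 4 in vehicle replicates 2 and 3. The site over the Pgr start, at 8890001 to 8910000, had 3 loop ends after progesterone, 3 in the knockout and 4 in each vehicle library. The site at 9370001 to 9380000 lies between genes, 401.39 kb beyond the end of Pgr and 130.97 kb beyond the start site of Arhgap42. It had 3 loop ends after progesterone, 3 in the knockout, and 4 and 3 in the vehicle libraries. The other sites found in all 4 libraries were the end of Pgr at 8950001 to 8975000, with 2 loop ends in each, and 9045001 to 9055000 inside Arhgap42. Every library therefore had loop ends at or near both edges of Pgr, though not always in an anchor that held the edge itself.

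**Figure D2:**
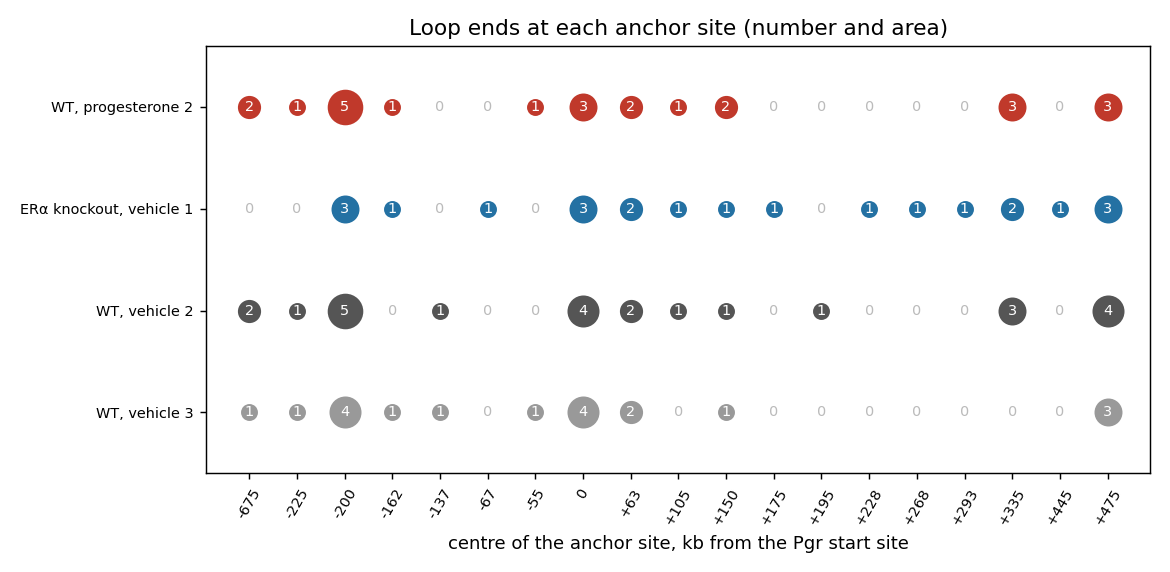
Loop ends at each of the 19 anchor sites, by library. Columns are sites in genomic order, named by the distance of their centre from the Pgr start site in kb (not to scale), and the number in a circle and its area give the loop ends there. The columns at -200, 0, +63, +150 and +475 kb are filled in all 4 libraries, and the single circles of the knockout lie mostly at positive distances, inside Arhgap42.

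At the start of Pgr, most anchors lay just past the start site. Anchors that began at 8900001, 0.17 kb beyond the start site, carried 2 loops after progesterone, 3 in the knockout, 4 in vehicle replicate 2 and 3 in vehicle replicate 3. An anchor that held the start site itself was listed for 1 loop after progesterone (8890001 to 8900000) and for 1 loop in vehicle replicate 3 (8895001 to 8900000). There was none in the knockout or in vehicle replicate 2. Within 5 kb of the start site the counts were 3 after progesterone, 3 in the knockout and 4 in each vehicle library. The edge of the 5 kb bins falls between the start site and these anchors, so whether an anchor holds the start site turns on a neighbouring bin.

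Of the loops within 10 kb of the start site, 3 of 3 ran upstream after progesterone, 2 of 3 in the knockout, 2 of 4 in vehicle replicate 2 and 3 of 4 in vehicle replicate 3. The upstream ones reached into the stretch between Pgr and Trpc6. A 200 kb loop from 8700001 to 8705000 to 8900001 to 8905000 was listed at identical positions after progesterone and in both vehicle libraries. The knockout list had no loop that matched it. A shorter loop to the same Pgr anchor started at 8740001 after progesterone (160 kb), at 8730001 in the knockout (170 kb), at 8755001 in vehicle replicate 2 (145 kb) and at 8730001 in vehicle replicate 3 (170 kb). These 4 loops formed a group through the progesterone loop, since the outer anchors of vehicle replicates 2 and 3 lie more than 10 kb apart. The shortest upstream loops to the start of Pgr in these 3 libraries began at 8840001 after progesterone (50 kb), 8830001 in the knockout (70 kb) and 8840001 in vehicle replicate 3 (55 kb). No such loop was in the list of vehicle replicate 2. The outer anchors of these short loops lie between genes, at -49.83 kb from the start site after progesterone, -64.83 kb in the knockout and -54.83 kb in vehicle replicate 3.

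At the end of Pgr, a loop from the site beyond Trpc6 was in all 4 lists. It was 260 kb long in the knockout and in both vehicle libraries, with identical anchors at 8700001 to 8705000 and 8960001 to 8965000. That anchor lies inside Pgr, at -3.61 kb from its end. After progesterone the loop was 265 kb long, and its anchor at 8965001 to 8970000 held the end of the gene. The progesterone anchor is the next 5 kb bin, so the 2 positions abut and do not overlap. Counted by the gene end inside an anchor, there were 2 loops after progesterone, 0 in the knockout and 0 in each vehicle library. Within 10 kb of the end there were 2 in each of the 4 libraries, but the second loop was not the same one. After progesterone it was a 725 kb loop found in no other list, and in the other libraries it was a loop between the edges of Pgr.

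Loops between the sites at the 2 edges of Pgr were in 3 of the 4 lists. A 70 kb loop from 8900001 to 8905000 to 8970001 to 8975000, 1.39 kb beyond the end, was listed at identical positions in the knockout and in vehicle replicate 2. Vehicle replicate 3 had a 50 kb loop from 8900001 to 8910000 to 8950001 to 8960000, whose far anchor lies inside Pgr at -8.61 kb from its end. The progesterone list had no loop between the edges, and all 5 of its Pgr loops ran upstream. Upstream partners numbered 5 of 5 loops after progesterone, 3 of 4 in the knockout, 3 of 5 in vehicle replicate 2 and 4 of 5 in vehicle replicate 3. The longest Pgr loop was the 725 kb loop of the progesterone list, from 8225001 to 8250000 to 8950001 to 8975000, with 25 kb anchors. The 330 kb loop of vehicle replicate 2 from 8900001 to 8910000 to 9230001 to 9240000 was the only 1 that joined Pgr to the start of Arhgap42. No library had a loop with 1 anchor on Pgr and the other on Trpc6.

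The site beyond Trpc6 also reached past Pgr. A 300 kb loop from it to 9000001, inside the end of Arhgap42 and 31.39 kb beyond Pgr, was in the progesterone, knockout and vehicle replicate 2 lists. It was not in the list of vehicle replicate 3. A loop to the intergenic site at 9370001 was matched in all 4 lists, with lengths of 675 kb after progesterone, 670 kb in the knockout, and 680 and 670 kb in vehicle replicates 2 and 3. That loop encloses Pgr and Arhgap42 whole. Vehicle replicate 2 alone listed a 1525 kb loop from the same site to 7175001 to 7200000, over Dync2h1 and Dcun1d5, with 25 kb anchors.

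Trpc6 was touched by fewer loops than Pgr in each library. Its body was touched by 2 loops after progesterone, 0 in the knockout and 1 in each vehicle library, and its start site by none. The shared loop was 450 kb long, from 8220001 to 8230000, over the pseudogene 1700128F08Rik, to 8670001 to 8680000, inside Trpc6 at -0.75 kb from its end. It had identical anchors after progesterone and in both vehicle libraries and no match in the knockout. The second progesterone loop was the 675 kb loop described above, whose 25 kb anchor at 8675001 to 8700000 reaches over the end of Trpc6.

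Arhgap42 was touched by 5 loops after progesterone, 6 in the knockout, 5 in vehicle replicate 2 and 1 in vehicle replicate 3. Its start site lay in an anchor of 3 loops after progesterone, 2 in the knockout, 3 in vehicle replicate 2 and 0 in vehicle replicate 3. A loop from inside the gene, at 9045001 or 9050001, to the site at 9370001 or 9375001 was in all 4 lists, 325 kb long after progesterone, 330 kb in the knockout, and 320 and 325 kb in vehicle replicates 2 and 3. A loop from the start site to the same intergenic site was listed after progesterone (140 kb), in the knockout (140 kb) and in vehicle replicate 2 (135 kb). Vehicle replicate 3 had instead a 100 kb loop with 25 kb anchors from 9250001 to 9275000, in the lncRNA gene Gm16833. That loop matched the others within 10 kb but did not touch Arhgap42. Loops with both anchors in Arhgap42 numbered 1 after progesterone (175 kb), 2 in the knockout (40 and 45 kb), 1 in vehicle replicate 2 (140 kb) and 0 in vehicle replicate 3. No 2 of these matched each other.

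Set beside all protein-coding genes, Pgr was touched by many loops in the wild-type libraries. Its 5 loops after progesterone were reached or passed by 1.63% of genes, and its 4 loops in the knockout by 11.6%. Its 5 loops in each vehicle library were reached or passed by 3.62% of genes in replicate 2 and by 0.925% in replicate 3. Trpc6 lay at 17.4% after progesterone, 44.6% in vehicle replicate 2 and 33.5% in vehicle replicate 3, and had no loop in the knockout. Arhgap42, with a body of 246.5 kb against 69.7 kb for Pgr, lay at 1.63% after progesterone, 4.11% in the knockout, and 3.62% and 33.5% in vehicle replicates 2 and 3. Longer genes meet more anchors, and these shares were not adjusted for length. They are descriptions, since the locus was picked for study.

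**Figure D3:**
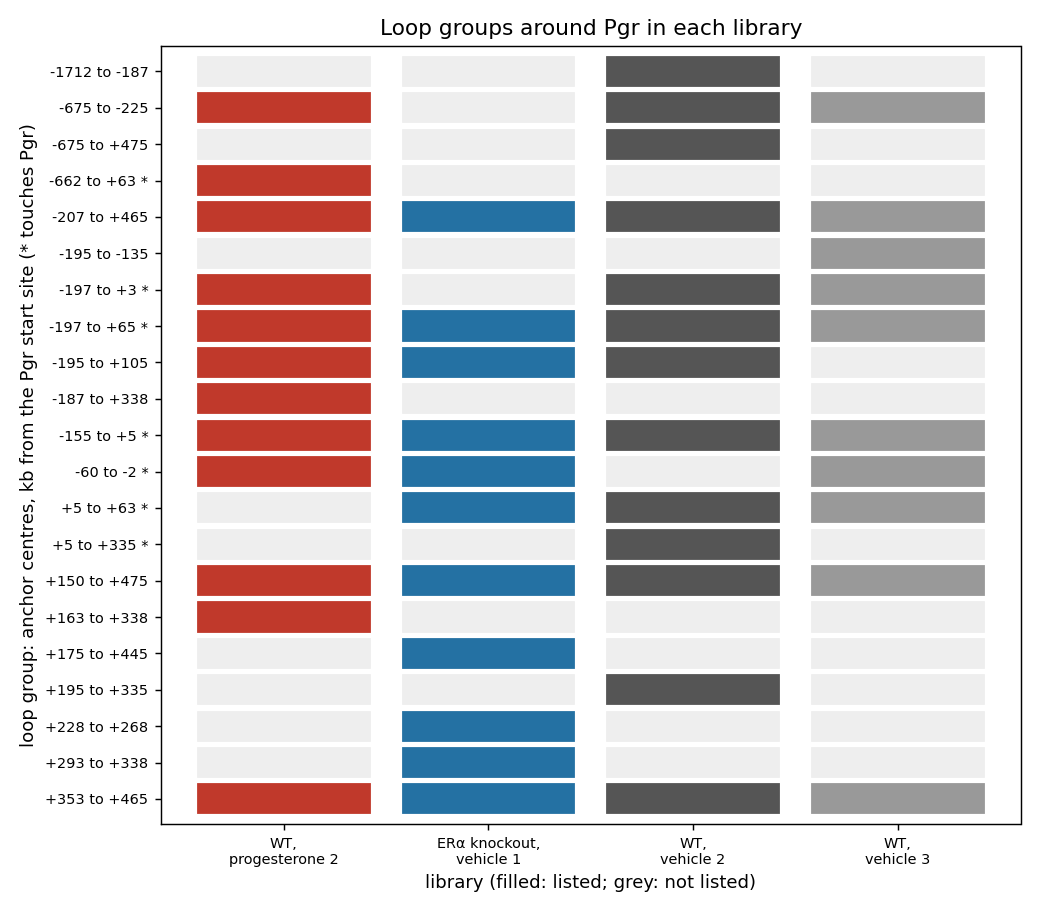
The 21 loop groups of the Pgr window in each library. Rows are groups of loops linked across libraries within 10 kb at both anchors, named by the centres of their anchors in kb from the Pgr start site, with a star where a loop touches Pgr; filled cells are listed and grey cells are not. The 5 rows filled in all 4 columns include 2 with a star, and 11 rows have a single filled cell.

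Linking the loops of the 4 lists within 10 kb at both anchors gave 21 groups. Of these, 5 groups were in all 4 libraries, 5 in 3 libraries, none in 2 and 11 in 1. With a gap under 10 kb, 3 groups were in all 4 libraries, and 0 when anchors had to overlap. After progesterone 3 of 12 window loops were in no other list, against 6.91% of the whole list, and in the knockout 3 of 11, against 34.8%. In vehicle replicate 2 the count was 4 of 13, against 14.9%, and in vehicle replicate 3 it was 1 of 10, against 4.16%. Each library, the vehicle ones included, had at least 1 such loop. Matched loop by loop, 4 of the 13 loops of vehicle replicate 2 were found in all 4 lists (30.8%), against 42.2% of that library's loops across the genome. The 4 were the 680, 260, 320 and 135 kb loops described above.

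The progesterone library was set against the vehicle libraries. Among the 7 loops of the window found in both vehicle lists, 1 was not listed after progesterone (14.3%, exact interval 0.361 to 57.9), against 13.5% of such loops across the genome. It was the loop between the edges of Pgr. It counts as shared by the vehicle libraries only because a gap of exactly 10 kb is allowed, and with a gap under 10 kb the count is 0. Set against vehicle replicate 2 alone, 5 of 13 loops were not listed after progesterone, against 39.5% across the genome, and against vehicle replicate 3 alone 2 of 10, against 18.7%. Conversely, neither vehicle list held 3 of the 12 loops listed after progesterone (25%, 5.49 to 57.2), against 12.7% across the genome. Both intervals include the share of the genome, but are too wide to decide whether the shares differ. When anchors had to overlap, 6 of the 12 had no vehicle match, against 32.1% across the genome. The 3 loops were those of 725, 525 and 175 kb, all with 25 kb anchors, at which 18.7% of the progesterone list was called. The 525 kb loop joined 8700001 to 8725000 with the start of Arhgap42. By the same measure each vehicle library differed from the other wild-type libraries too. Vehicle replicate 2 lacked 1 of 8 window loops found in the progesterone and vehicle replicate 3 lists, against 5.07% across the genome, namely the 50 kb loop to the Pgr start. Vehicle replicate 3 lacked 1 of 8 found in the progesterone and vehicle replicate 2 lists, against 26.2% across the genome, namely the 300 kb loop. The counts are equal at 1 for all 3 wild-type libraries, but the shares of the genome beside them are unlike (13.5%, 5.07% and 26.2%). The share not listed after progesterone (14.3%) is near that of the genome. The share of progesterone loops in neither vehicle list (25%) is above its 12.7%. With so few loops, neither decides whether the progesterone library differs.

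The knockout library was set against the same vehicle libraries. Of the 7 loops found in both vehicle lists, 2 were not listed in the knockout (28.6%, exact interval 3.67 to 71), against 7.6% across the genome. The interval holds the share of the genome, but with 7 loops that share anchors it is too wide to decide whether the shares differ. The 2 loops were the 200 kb loop from beyond Trpc6 to the start of Pgr and the 450 kb loop to the end of Trpc6. Both were also in the progesterone list, so all 3 wild-type libraries had them. Set against vehicle replicate 2 alone, 7 of 13 were not listed in the knockout, against 22.2% across the genome, and against vehicle replicate 3 alone 3 of 10, against 11.5%. In the other direction, neither vehicle list held 3 of the 11 loops of the knockout (27.3%, 6.02 to 61), against 38.2% across the genome. Against vehicle replicate 2 alone that count was 5 of 11, against 41.3% across the genome, and it was also 5 when anchors had to overlap, against 52.2%. The 3 were loops of 270, 40 and 45 kb with an anchor in Arhgap42, and none of them touched Pgr. Vehicle replicate 2 lacked 2 of 7 window loops found in the knockout and vehicle replicate 3 lists, against 8.01% across the genome. Vehicle replicate 3 lacked 1 of 6 found in the knockout and vehicle replicate 2 lists, against 39.3%. By this pairwise matching, the number of loops lacking in the knockout was the same as in vehicle replicate 2. Those lacking in vehicle replicate 2 were the 170 and 70 kb loops to the Pgr start. By groups, however, the 170 kb loop was linked to a loop of each of the 4 libraries, vehicle replicate 2 included. The groups of the 200 and 450 kb loops held no knockout loop. Though the 200 kb loop was not in its list, the knockout library listed the 260 kb loop from the same outer anchor and the 170 kb loop to the same Pgr anchor. With a gap of up to 25 kb, 1 of 8 loops of both vehicle lists was not listed in the knockout, against 4.88% across the genome.

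**Figure D4:**
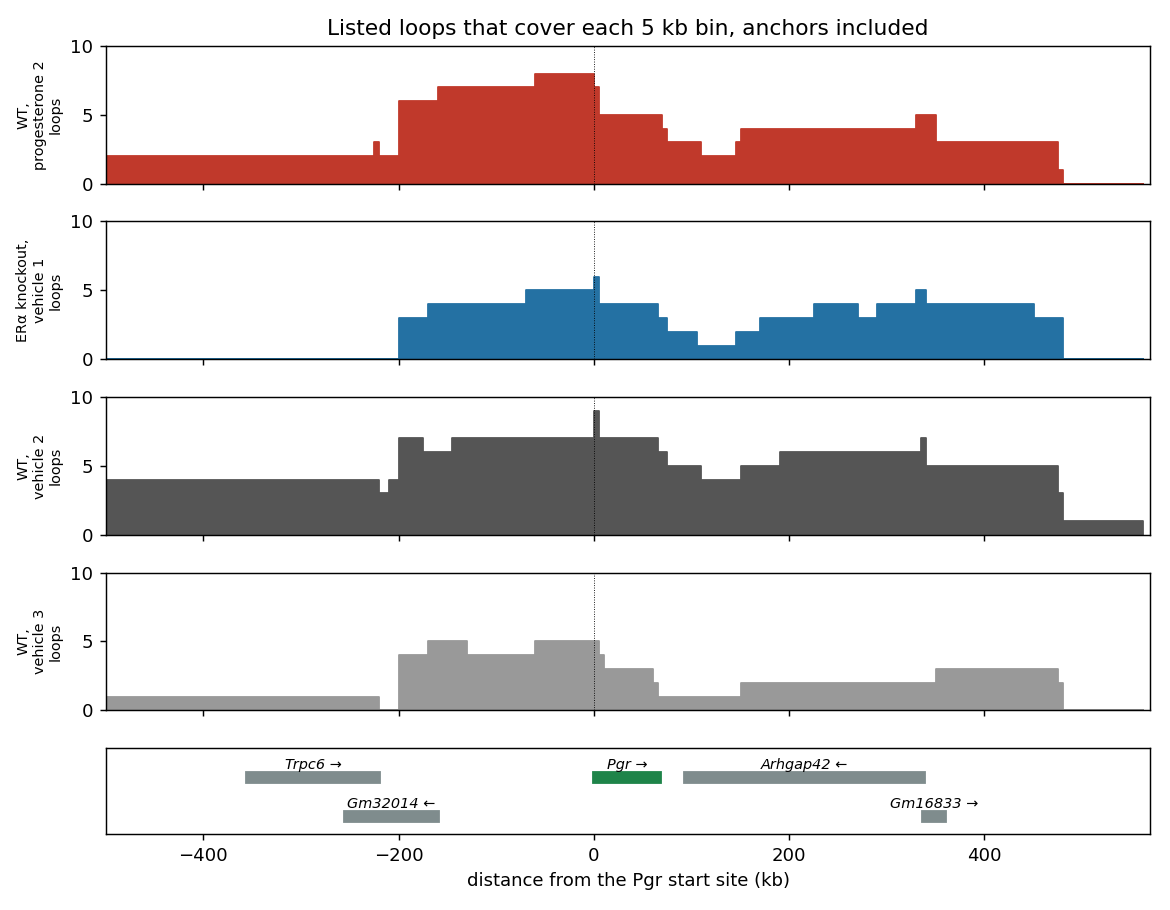
Number of listed loops that cover each 5 kb bin, from the start of one anchor to the end of the other, for each library. The x axis is the distance from the Pgr start site in kb, the y axis the number of loops, and the bottom panel shows the genes. Cover steps up 200 kb before Pgr in each library. After progesterone it is highest just before the Pgr start, at 8 loops. In the knockout and in vehicle replicate 2 it is highest just past the start, at 6 and 9 loops. In vehicle replicate 3 the most is 5, around the start and also from -167.3 to -132.3 kb. Cover falls towards the end of Arhgap42 and rises again inside that gene.

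The same listed loops were also counted over each 5 kb bin, which needs no matching but is not separate evidence. Over the Pgr body it ranged from 5 to 8 loops after progesterone, from 3 to 6 in the knockout, and from 6 to 9 and from 1 to 5 in vehicle replicates 2 and 3. Over the Trpc6 body the medians were 2 loops after progesterone, 0 in the knockout, and 4 and 1 in the vehicle libraries. Over the stretch from the end of Trpc6 to the start of Pgr they were 7 after progesterone, 4 in the knockout, and 7 and 4 in the vehicle libraries. Over Arhgap42 they were 4 after progesterone, 3 in the knockout, and 6 and 2 in the vehicle libraries. Taken over all these stretches, the vehicle libraries differed from each other by up to 4 loops in the medians, and no other pair differed by more. Over the Trpc6 body, however, the knockout and vehicle replicate 2 (0 and 4) lay further apart than the vehicle libraries (4 and 1).

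Other genes of progesterone action gave a setting for these counts. The list held 33 genes and was drawn up with earlier results of these data known. Their start or end lay in an anchor for 19 genes after progesterone, 25 in the knockout, and 22 and 19 in vehicle replicates 2 and 3. The shares of all protein-coding genes were 27.8% after progesterone, 43.6% in the knockout, and 34.3% and 23.9% in the vehicle libraries. Pgr by that count had 3 loops after progesterone, 0 in the knockout and 0 and 1 in the vehicle libraries. For Pgr this turns on the edges of bins. Within 5 kb of its start site there were 3 loops after progesterone, 3 in the knockout and 4 in each vehicle library. Within 10 kb of its end there were 2 in each library. The counts of other genes given next are again of loops with the start or end in an anchor. Among the receptors related to Pgr, Esr2, the gene of estrogen receptor beta, had 2 loops in each library. Esr1, the gene of ERα, had 0 after progesterone, 1 in the knockout, and 1 and 2 in the vehicle libraries. Nr3c1 and Nr3c2, the glucocorticoid and mineralocorticoid receptor genes, had none at the start or end in any library. Loops did touch the bodies of these genes. In the order progesterone, knockout, vehicle replicates 2 and 3, they numbered 4, 9, 4 and 5 for Esr1. For Nr3c1 they numbered 1, 4, 3 and 1, and for Nr3c2 1, 5, 1 and 0. Pgrmc2, which encodes a membrane protein related to progesterone binding, had 0 loops after progesterone, 3 in the knockout, and 4 and 1 in the vehicle libraries, and Pgrmc1 had 1 loop in vehicle replicate 2 alone. Of the chaperone genes that assemble the receptor, Fkbp4 had 0 loops after progesterone, 4 in the knockout, and 1 and 0 in the vehicle libraries. Hsp90aa1 had 0 after progesterone, 2 in the knockout, and 1 and 0 in the vehicle libraries. Stip1 had 1 after progesterone, 2 in the knockout, and 1 and 0 in the vehicle libraries. The knockout list was the longest, and more genes of any kind lie at an anchor in it. Hsp90ab1 had 1 after progesterone, 1 in the knockout, and 0 and 1 in the vehicle libraries, and Ptges3 had 1 in the knockout alone. Coactivator and corepressor genes lay at an anchor for 6 of 6 genes after progesterone and in the knockout, and for 5 and 6 in the vehicle libraries. The list also held 14 uterine regulators and targets, not all of them targets of the receptor. Of these, 9 lay at an anchor after progesterone, 10 in the knockout and 9 in each vehicle library.

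The genes whose loop counts were most like those of Pgr were sought among 2955 protein-coding genes of 1.5 times its length or less in either direction. Likeness was the sum over the 4 libraries of the difference in loops that touch the gene. Snx10, a sorting nexin gene on chromosome 6, was closest, with 5 loops in each library and a summed difference of 1. Dnajc5b and Vsir each had 4 loops after progesterone, 4 in the knockout, and 5 and 4 in vehicle replicates 2 and 3. Atad1 had 5 after progesterone, 5 in the knockout, and 5 and 4 in the vehicle libraries, and Dmgdh 4 after progesterone and 5 in each of the others. These 4 genes had a summed difference of 2. Of the 2955 genes, 550 (18.6%) had no loop in any library.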

How the data were processed

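Hi-C libraries of mouse uterus used an Arima kit, per the labels' protocols. The authors' deposited lists, 1 per library, give loop positions in bases in 6 columns with no header. Juicer 1.5.6 and mm10 are named in the submitters' processing notes, but the sources used here name neither the loop caller nor its thresholds. Starts in the files count from 0 and are written from 1.

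Genes came from RefSeq GRCm38.p6 (21631 protein-coding genes), and start sites and sequences from its promoter table, in which all 3 genes were found. Loops matched when both anchors lay within 10 kb, a gap of exactly 10 kb included. Shares carry exact (Clopper-Pearson) 95% intervals. Loop length is the distance between anchor starts. The matching was run on simulated data from vehicle replicate 2: loops kept or moved by 5 kb matched in 100% of cases and loops moved far in 1.37%. The 100% was fixed in advance by the 10 kb allowed, so it checks the code alone. False matches between close neighbours were not tested.

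The members, lists and rules were chosen with earlier results of these data known. The genes named were Pgr, Trpc6, Arhgap42, protein-coding genes at partner anchors of their loops (Arhgap42 alone), up to 10 pathway genes with a loop (1 of them is not reported here), and up to 5 genes with counts like those of Pgr. Other genes were named by position after their values were seen, and so were the anchor sites. The receptor genes with no loop at the start or end were named with their class. Alternatives were other windows, anchor sizes, distances and matching gaps, and leaving out each vehicle library. Computation used Python 3.11.15, numpy 2.4.6, pandas 2.3.3, scipy 1.17.1 and matplotlib 3.10.9.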

Additional observations from a re-analysis of the deposited data

How the results depend on the processing

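Of 73 alternative values, 33 lay within 1.5 times the reported count and 40 did not. Loops touching Pgr kept their counts in all 4 libraries with gaps of up to 10 or 25 kb to the gene. Orders below are progesterone, knockout, vehicle replicates 2 and 3. Anchors of 10 kb alone gave 4, 3, 6 and 5 window loops, and anchors of 5 kb alone 4, 8, 6 and 4. A window of 1000 kb gave 18 loops in the knockout and 20 in vehicle replicate 2. Loops at the Pgr start site became 3, 3, 4 and 4 within 5, 10 or 25 kb, and loops at its end 2, 2, 2 and 1 within 5 kb and 2 in each library within 10 or 25 kb. The groups in all 4 libraries became 3 with a gap under 10 kb, chosen after seeing the data, and 0 when anchors had to overlap. Vehicle loops not listed after progesterone became 0 with a gap under 10 kb, and progesterone loops in neither vehicle list 6 when anchors had to overlap. Vehicle loops not listed in the knockout became 1 with a gap of up to 25 kb, and knockout loops in neither vehicle list 5 when anchors had to overlap. Leaving out vehicle replicate 2 or 3 gave 2 of 10 and 5 of 13 vehicle loops not listed after progesterone (18.7% and 39.5% across the genome) and 4 and 4 of 12 progesterone loops in no vehicle list (34.7% and 16%). It gave 3 of 10 and 7 of 13 vehicle loops not listed in the knockout (11.5% and 22.2% across the genome) and 4 and 5 of 11 knockout loops in no vehicle list (61.3% and 41.3%). With 1 vehicle list left out, loops of the other count without having to be in both, so that 10 or 13 are tested in place of 7. Keeping 1 anchor size leaves fewer loops to count, and for the other settings the cause was not tested. No paired analysis was possible because the progesterone and vehicle groups share a single replicate number and the results come from no test. Depth is unknown and limits every statement that a loop was not listed.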

Other observations

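Loops of the Pgr window were also matched library by library. After progesterone, 12 window loops were listed, of which 58.3% were in the knockout list, 66.7% in that of vehicle replicate 2 and 66.7% in that of vehicle replicate 3. The shares of all progesterone loops were 84.3%, 84% and 65.3% in these lists. The knockout had 11 window loops, of which 63.6% were in the progesterone list (45.9% of all knockout loops), 54.5% in vehicle replicate 2 (58.7%) and 63.6% in vehicle replicate 3 (38.7%). Vehicle replicate 2 had 13, of which 61.5% were in the progesterone list (60.5% of all its loops), 46.2% in the knockout (77.8%) and 53.8% in vehicle replicate 3 (51.3%). Vehicle replicate 3 had 10, of which 80% were in the progesterone list (81.3% of all its loops), 70% in the knockout (88.5%) and 70% in vehicle replicate 2 (88.5%). The window shares found in the knockout list lay below the whole-list shares for every other library. Those found in the list of vehicle replicate 2 lay below for progesterone and vehicle replicate 3, and were close for the knockout (54.5% against 58.7%). In the list of vehicle replicate 3 they lay above for the knockout (63.6% against 38.7%). There they were close for progesterone (66.7% against 65.3%) and vehicle replicate 2 (53.8% against 51.3%). In the progesterone list they lay above for the knockout (63.6% against 45.9%). There they were close for vehicle replicate 2 (61.5% against 60.5%) and vehicle replicate 3 (80% against 81.3%). These loops are few, share anchors and were not tested. Window loops with 25 kb anchors numbered 4 after progesterone, 0 in the knockout and 1 in each vehicle library. Such anchors made up 18.7% of the whole progesterone list, 10.1% of the knockout list, and 13.3% and 23.2% of the lists of vehicle replicates 2 and 3. The part of anchor size in the sharing was not tested.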
